A study of Drosophila melanogaster with 2 samples.

Results

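CG11050, Lk6 and CG32772 are 3 of 13945 protein-coding genes on the 6 chromosome arms of Drosophila melanogaster. They were selected on the peak signal of the final list of binding sites for CG10147, each because an intron of it held 1 of the 25 highest values of that list. The final list held 4576 peaks, 1531 of them in introns, and 6 intronic peaks stood among its strongest 25. The 3 genes with 2 kb on each side held 5 peaks of the final list and 17 of a longer list called on both libraries pooled. Over the annotation, 34.7% of protein-coding genes had a final-list summit in the gene or within 2 kb. The strength of the leading peak at each gene is therefore how the gene was found, and no test was made on it and nothing is read from that share.

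CG10147 is a predicted zinc finger protein, and its DNA binding was mapped by chromatin immunoprecipitation and sequencing (ChIP-seq) with an antibody against GFP. The flies carried CG10147 with GFP at its carboxyl end, from a transgene of 1 line, and the antibody was directed at the tag. Chromatin came from whole embryos of mixed sex collected from 0 to 24 hours, sheared to 200 to 800 bp. There was 1 group, with biological replicates numbered 2 and 3 and no second condition, and whole embryos give no separation of cell types.

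C2H2 zinc fingers are small folds that hold a zinc ion and read short stretches of DNA, and proteins with several of them in a row form a large family of DNA-binding proteins in flies. Lk6 encodes a serine/threonine kinase related to the mammalian MNK kinases. It acts downstream of the ERK pathway and phosphorylates the cap-binding translation initiation factor eIF4E. CG11050 and CG32772 are named here by symbol alone. An intron can hold regulatory DNA as well as transcribed sequence, and a ChIP-seq peak in an intron does not say which gene, if any, the site acts on.

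The 200 bp around the leading summit of each gene are shown because their content is described below. They are the plus strand of dm6, read from the RefSeq copy of the Release 6 assembly, at chr2L:6612609-6612808, chr3R:11760947-11761146 and chrX:4910266-4910465. Capitals mark the longest word that the 3 windows share on either strand, TAGTTTTA or its reverse complement TAAAACTA.
CG11050: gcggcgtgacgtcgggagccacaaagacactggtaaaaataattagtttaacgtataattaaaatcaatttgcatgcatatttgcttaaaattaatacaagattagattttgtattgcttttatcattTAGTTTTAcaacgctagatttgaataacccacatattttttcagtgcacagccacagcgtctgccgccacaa
Lk6: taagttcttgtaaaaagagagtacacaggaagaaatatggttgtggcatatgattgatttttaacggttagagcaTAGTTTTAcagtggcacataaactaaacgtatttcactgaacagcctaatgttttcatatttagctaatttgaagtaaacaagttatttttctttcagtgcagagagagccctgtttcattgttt
CG32772: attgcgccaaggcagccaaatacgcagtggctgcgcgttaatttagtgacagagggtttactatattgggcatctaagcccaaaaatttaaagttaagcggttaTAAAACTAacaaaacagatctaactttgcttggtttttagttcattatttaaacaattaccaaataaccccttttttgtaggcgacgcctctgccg

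The CG11050 site was the strongest peak of the final list. It spanned 764 bp, from 6612308 to 6613071 on 2L, with its summit at 6612709 and a pooled signal of 4880, in the units of the authors' peak caller. Its signal was 2153 in the list called on replicate 2 and 2766 in that of replicate 3. It ranked 12 of 30000 in replicate 2 and 1 of 30000 in replicate 3. The replicate 2 list held 16 mitochondrial peaks, and among its nuclear peaks the site ranked 1. Both replicates thus placed the same nuclear site first. The selection used the pooled signal, which holds both libraries, so ranks of the leading sites in either replicate are not independent of it.

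The Lk6 site spanned 641 bp on 3R, from 11760849 to 11761489, with its summit at 11761047. Its pooled signal of 2258 ranked 15 in the final list. In replicate 2 the signal was 945.6, rank 32, or rank 16 among nuclear peaks, and in replicate 3 it was 1304, rank 19. The CG32772 site spanned 491 bp on X, from 4910105 to 4910595, with its summit at 4910366 and a pooled signal of 2206, rank 17. Its signal was 982.0 in replicate 2, rank 31, or rank 15 among nuclear peaks, and 1258 in replicate 3, rank 22. These sites were near equals: Lk6 was above CG32772 in replicate 3 and in the pooled list, and CG32772 was above Lk6 in replicate 2.

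**Figure D1:**
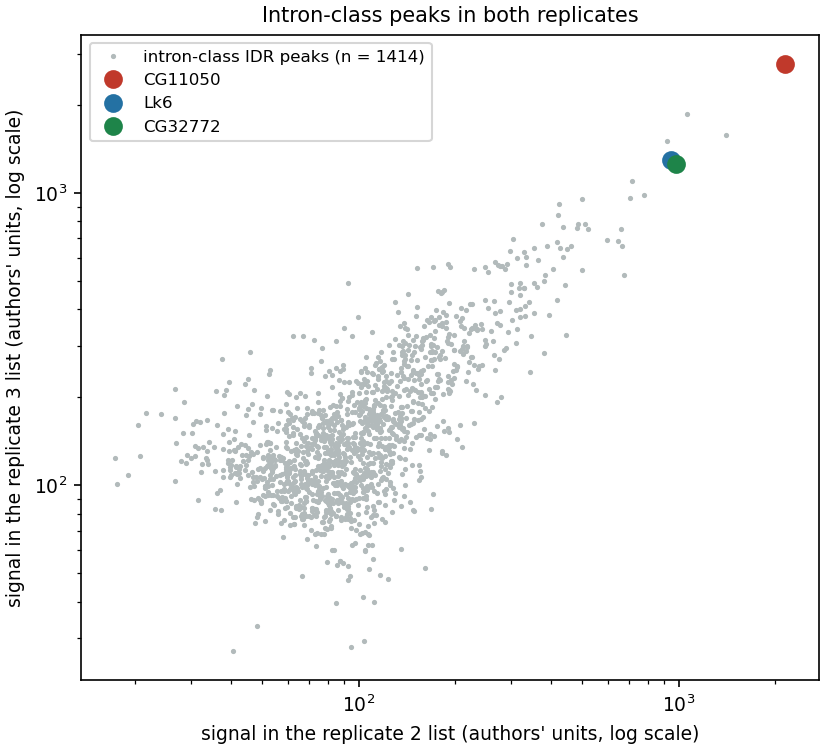
Signal in the replicate 2 list (x axis, authors' units, log scale) against signal in the replicate 3 list (y axis, same units, log scale) for the 1414 intronic peaks of the final list with a summit within 100 bp in both replicates. Each grey point is a peak and the coloured points are the leading sites; CG11050 is at the upper right end with 2153 and 2766, and Lk6 and CG32772 lie next to each other.

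The threshold of the selection fell between signals of 1966 and 1912, the 25th and 26th values, both at promoters. The other intronic peaks above it were in ush, a cofactor gene of GATA factors (signal 2934, rank 6), in Trl, the gene of GAGA factor (2857, rank 7), and in a stretch inside the spans of HmgD and of HmgZ, which encode HMG-box proteins (2367, rank 10). The nearest intronic peaks below it were in Kdm2, at rank 34 with 1803, in the span shared by Hyls1 and chif, at rank 37 with 1750, and in CG9837, at rank 40 with 1652. The median of all 1531 intronic peaks was 224.2, and the CG11050, Lk6 and CG32772 sites stood 21.8, 10.1 and 9.84 times above it.

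Summit positions were close between libraries. At CG11050 the replicate 2 summit lay at the pooled position and the replicate 3 summit 9 bp before it. At CG32772 replicate 3 gave the pooled position and replicate 2 a summit 4 bp before it. At Lk6 replicate 3 gave the pooled position, and the replicate 2 summit was 27 bp farther along 3R. All were within the 100 bp used to call a summit shared, as were 92.4% of intronic peaks in the final list. The −log10 q deposited for the 3 sites was 4.13 in the pooled list, the highest value there, which 6710 pooled peaks shared, so significance did not order them.

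The leading regions were among the widest of the list. Only 2 of the 4576 peaks were wider than the CG11050 region, 9 than the Lk6 region and 34 than the CG32772 region. The median width was 384 bp. The other intronic peaks among the strongest 25 were wide too. Their regions spanned 560 bp at HmgD and HmgZ, 541 bp at Trl and 429 bp at ush. The Lk6 region held a second pooled summit at 11761256, with a signal of 72.2 and rank 11910. Replicate 3 split the same stretch into separate regions with summits at 11761047 and 11761254, the second with a signal of 72.6. The shoulder was small beside the main summit and was not listed by replicate 2.

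CG11050 (FBgn0031836) runs from 6611011 to 6617117 on the plus strand of 2L, with 3 annotated transcripts that start at separate transcription start sites (TSSs). The summit fell in intron 2 of 4 in every transcript, from 6612641 to 6612780. That intron is 140 bp long, and the summit sat 69 bp after the upstream exon and 72 bp before the downstream exon. The start codon lies 143 bp before the summit, in exon 2. All 3 TSSs were upstream, at 1698, 1303 and 1022 bp.

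Because the intron is so short, much of the CG11050 peak region was exonic. Coding exon made up 366 of its 764 bp (47.9%), 5' UTR 81 bp (10.6%) and intron 317 bp (41.5%). The intronic part was the whole 140 bp intron and, at the upstream end of the region, a stretch of the preceding intron. The GC content was 58.7% in the coding part, 49.4% in the UTR part and 29.0% in the intronic part, and the 140 bp intron itself had 22.1%. No other of the 1531 intronic summits was in an intron of 140 bp or less. The next shortest was 169 bp, in lncRNA:CR43337, with a peak at rank 2505, and 19 of the 1531 were in introns under 500 bp. Introns of at most 140 bp made up 2.79% of the bases in the intron class, and the median intron with a summit was 9768 bp long.

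**Figure D2:**
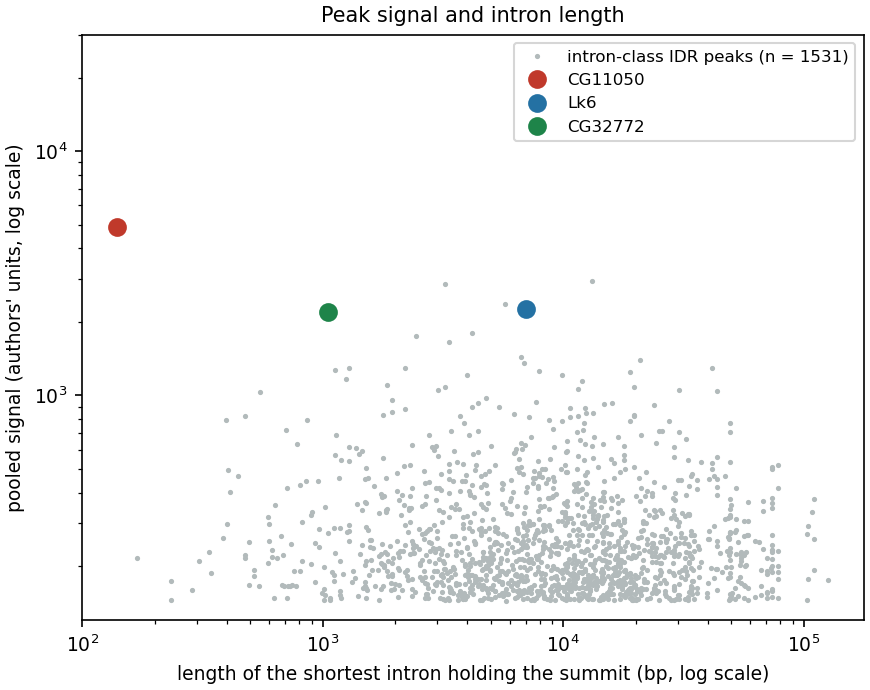
Length of the shortest annotated intron that holds the summit (x axis, bp, log scale) against pooled signal (y axis, authors' units, log scale) for the 1531 intronic peaks of the final list, in grey, with the leading sites coloured. CG11050 stands alone at 140 bp and 4880, CG32772 is at 1054 bp and 2206, and Lk6 at 6991 bp and 2258 is in the range where most peaks lie.

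Lk6 (FBgn0017581) runs from 11750931 to 11764457 on the minus strand of 3R. Its transcripts start at alternative sites, RA at 11764457 and RB at 11760079, and share the coding exons downstream. The summit lay between these TSSs, 3410 bp downstream of the RA start and 968 bp upstream of the RB start. It was intronic in RA only, in intron 1 of 5 (11756493 to 11763483, 6991 bp), 2437 bp after the first exon and 4555 bp before the next. For RB the same site is 5' flanking sequence. With a promoter defined as 1000 bp around a TSS in place of 500 bp, the Lk6 site would be classed as promoter.

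CG32772 (FBgn0052772) runs from 4909102 to 4915161 on the plus strand of X, with 4 transcripts and 2 TSSs. The summit lay 1264 bp downstream of the shared start of RC and RE and 2015 bp upstream of the shared start of RD and RF at 4912381. In RC it was in intron 1 of 5 and in RE in intron 2 of 6, which are the same interval, 4909798 to 4910851 (1054 bp). The exons on its sides were 569 bp and 486 bp away. At Lk6 and CG32772 the site thus lay between alternative starts of its gene, and at CG11050 it lay downstream of all of them. The peak regions of Lk6 and CG32772 held no exonic base.

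Distances to the nearest TSS were 1022, 968 and 1264 bp for CG11050, Lk6 and CG32772, against a median of 2622 bp and quartiles of 1174 and 5898 bp for intronic peaks. The nearest TSS of all genes was a TSS of the host gene at each site. Only CG6927 had another TSS within 5 kb of a leading summit. It starts 3466 bp from the CG32772 summit, on the plus strand and upstream of CG32772, and had its own peak at rank 3233 of the final list. The nearest other genes were lncRNA:CR44913 at 6371 bp from the CG11050 summit and l(3)neo38 at 10503 bp from the Lk6 summit.

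**Figure D3:**
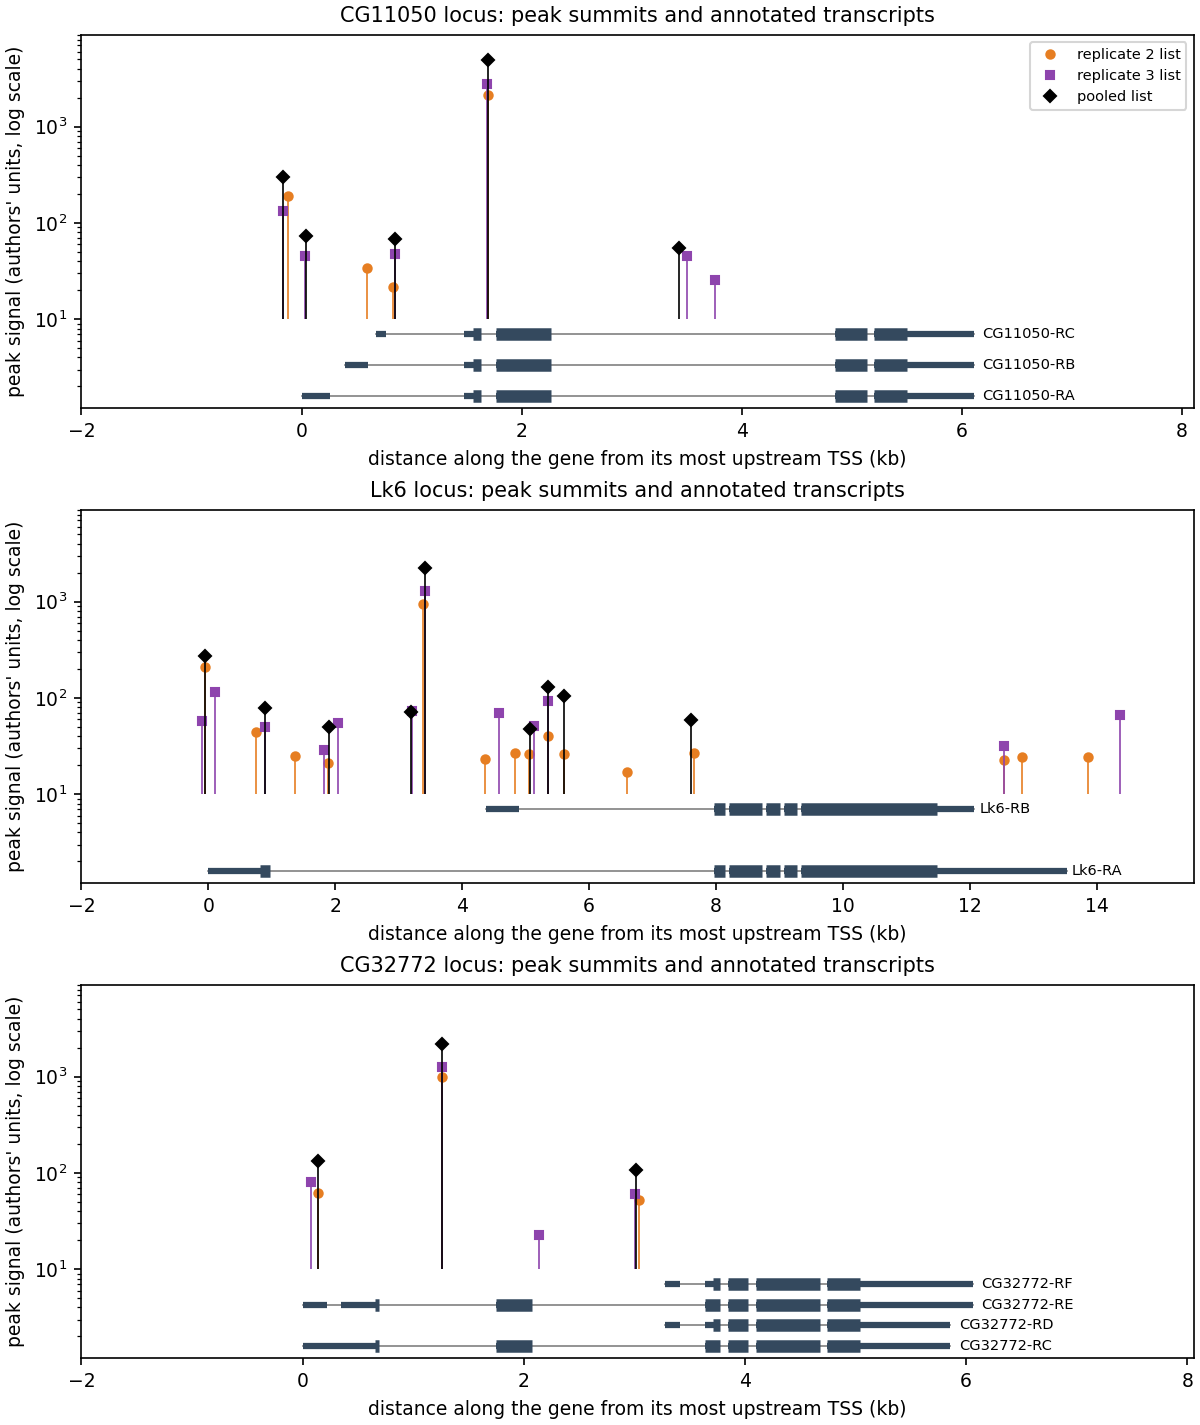
Peak summits at the 3 genes by distance along the gene from its most upstream TSS (x axis, kb), with the signal of each peak (y axis, authors' units, log scale) in the replicate 2, replicate 3 and pooled lists; signals differ in scale between lists. Annotated transcripts are drawn at the foot of each panel, in the gene's direction and with no relation to the y axis, with thick boxes for coding exons, thin boxes for untranslated exons and lines for introns. Each gene has a single tall summit in all 3 lists, and every other pooled summit is at or below 299.0.

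Every other peak at these genes was weak beside the leading one. The final list held 2, 2 and 1 summits at CG11050, Lk6 and CG32772. Of genes with a length within 0.8 to 1.25 times that of each, 40.0%, 50.2% and 40.1% had at least 1, which for the members the selection had fixed. The pooled list held 5, 9 and 3 summits, the replicate 2 list 4, 15 and 3 and the replicate 3 list 6, 12 and 4. Of the 17 pooled summits, 11 had a summit within 100 bp in both replicates and 6 in 1 replicate. All 5 in the final list were found in both. Over the whole lists, 18087 of 30000 replicate 2 summits and 20633 of 30000 replicate 3 summits were shared with the pooled list. The final list was itself thresholded for reproducibility, and 92.4% of its intronic peaks were found in both replicates. Nothing is therefore read from these counts.

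At CG11050 the second peak was at the promoter, 168 bp upstream of the RA start, with a pooled signal of 299.0 and rank 1493. It had 190.4 in replicate 2, rank 640, and 132.5 in replicate 3, rank 2611. The leading site exceeded it 16.3 times in the pooled list, 11.3 times in replicate 2 and 20.9 times in replicate 3. Weaker pooled summits lay 37 bp downstream of the RA start, at 73.4, 171 bp downstream of the RC start, at 67.8, and in an intron 1734 bp past the leading summit, at 55.2.

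At Lk6 the RA promoter carried the other peak of the final list, 57 bp upstream of the start, at 272.1 and rank 1738. Replicate 2 placed it at 208.7, rank 539. Replicate 3 listed 57.3 at the nearest summit, rank 8826, and 115.5 at a summit 108 bp downstream of the start, rank 3177. The promoter peak was thus ranked higher by replicate 2 than by replicate 3, as it was at CG11050. The leading site exceeded the second value 8.30 times in the pooled list, 4.53 times in replicate 2 and 11.3 times in replicate 3.

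The RB start of Lk6 had no pooled summit within 500 bp, the nearest being 694 bp inside the gene with a signal of 47.7. Replicate 2 listed a summit 23 bp upstream of that start at 23.0, rank 20764, and replicate 3 one 204 bp downstream at 70.4, rank 6616. The remaining pooled summits of Lk6 were intronic at 131.3, 104.4, 59.1 and 49.8, with another in coding sequence at 78.5. All of them lay outside the final list, whose lowest signal was 144.6.

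At CG32772 neither promoter was in the final list. The RC and RE start had a pooled summit 135 bp downstream at 132.2, rank 5230, under that lowest signal. It was 61.7 in replicate 2, rank 5198, and 80.3 in replicate 3, rank 5439. The RD and RF start had a pooled summit 263 bp upstream at 108.3, rank 6965. The leading site exceeded the second peak 16.7 times in the pooled list, 15.9 times in replicate 2 and 15.7 times in replicate 3, the smallest difference between replicates of the 3 genes.

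The windows printed above held more A and T than G and C. GC was 35.0% at CG11050, 32.5% at Lk6 and 39.0% at CG32772, against 33.7 ± 6.42% (SD over 1531 intronic peaks) and 40.0 ± 7.89% (SD) in 247208 intronic windows of 200 bp across the genome. CG11050 and Lk6 were within 1 SD of the intronic peaks, on either side of their mean. CG32772, also within 1 SD, was closer to the mean of the genome-wide windows. The CG11050 window reaches past its 140 bp intron into coding exon on both sides, and the intron alone had 22.1%. The longest uninterrupted run of A and T was 12, 8 and 11 bases, against a median of 12 in intronic peaks. Soft-masked bases made up 24.5%, 19.0% and 21.5%, against a median of 22.5%. No annotated transposable element overlapped the regions, and a BLAST search of each whole region against the assembly returned 1 full-length match and no other hit.

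GC was lower at the 3 summits than 100 bp to either side, though no summit held the lowest value within 1000 bp. Over intronic peaks the mean GC in steps of 50 bp was 30.2% at the summit, 43.7% at 200 bp before it and 44.0% at 200 bp after it. CG11050 had 22% at the summit, 64% at 100 bp upstream and 58% at 100 bp downstream, the flanks being its coding exons. CG32772 had 28% at the summit, 38% at 100 bp upstream and 66% at 100 bp downstream. Lk6 had 34% at the summit and its lowest value, 24%, 50 bp upstream. The lowest value was 12% at CG11050, 500 bp upstream, and 16% at CG32772, 950 bp upstream.

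**Figure D4:**
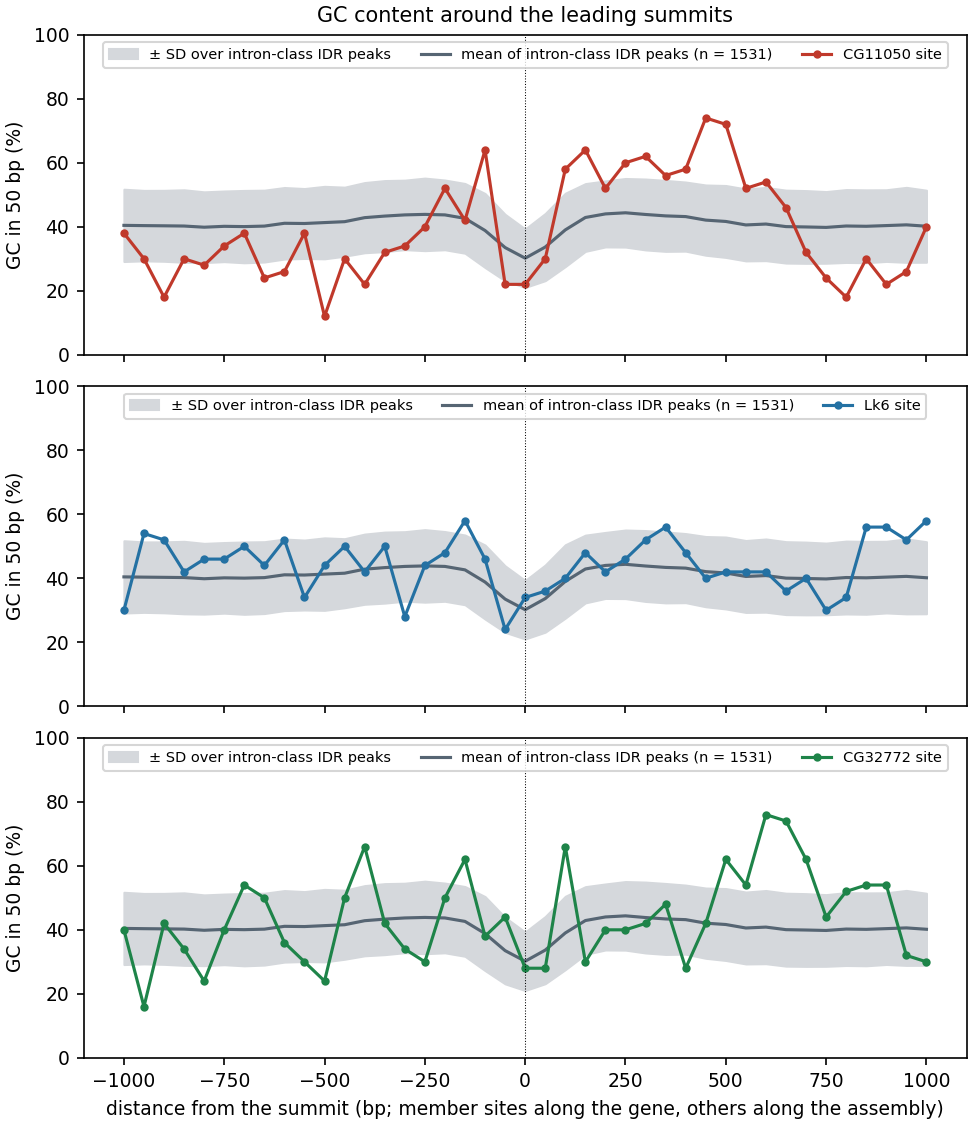
GC content in 50 bp steps (y axis, %) by distance from the summit (x axis, bp) for each leading site, along the direction of its gene, over the mean (dark line) and SD (grey band) of the 1531 intronic peaks, along the assembly. The sites have 22, 34 and 28% at the summit for CG11050, Lk6 and CG32772, and the mean of intronic peaks dips to 30.2% at the same place.

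The longest word common to the 3 windows had 8 bases and stood close to each summit. It lay at positions 28 to 35 past the summit at CG11050, 4 to 11 past it at CG32772, and 25 to 18 before it at Lk6, counted along the plus strand. Read along its gene it was TAGTTTTA at CG11050 and TAAAACTA at Lk6 and CG32772. The word was found in 148 of the 4573 other windows of the final list (3.24%), in 51 of 1531 intronic ones (3.33%, the 3 sites included) and in 4271 of 247208 intronic windows genome-wide (1.73%). Of the other 22 peaks in the strongest 25, 1 held it, at the promoter shared by SLC5A11 and lncRNA:CR44120 (rank 11), and 1 of the 75 peaks at ranks 26 to 100 did. At ranks 101 to 500 the count was 21 of 400 (5.25%), and below rank 500 it was 125 of 4076 (3.07%). The word was picked as what these windows share, so its presence in all 3 is no result.

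Longer words were shared by pairs of windows. CG11050 and Lk6 shared TAGTTTTACA, which extends the word above and was in 11 of 4576 windows (0.240%), and also TTTCAGTGCA, in 33 windows (0.721%) and in 0.146% of intronic windows genome-wide. At CG11050 the second of these crossed the end of the 140 bp intron, with 6 intronic and 4 coding bases, so it includes the splice acceptor. At Lk6 it lay inside the intron, 67 to 76 bases past the summit on the plus strand. CG11050 and CG32772 shared TTAGTTTTA, found in 67 windows (1.46%) and in 0.79% of intronic windows genome-wide. For TAGTTTTACA the genome-wide share was 0.0756%. These words too were picked as what the windows share, and the counts include those windows, so nothing is read from the shares.

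A set of 11 fixed motifs was searched on both strands. GAGAG, the core read by GAGA factor, occurred 3 times in the Lk6 window, 2 of them overlapping, and not in the other windows; it was in 19.7% of other windows of the final list and in 21.3% of intronic windows genome-wide. TATAAA occurred once, at CG32772, where it overlaps the shared word (38.2% of other windows). AAAATAT occurred once, at CG11050 (29.5%). The words TATCGATA of Dref, CGATA of BEAF-32, CAGGTAG of Zelda, AGATAA of GATA factors, CACGTG of the E-box and TGACTCA of AP-1, and the AT-rich words TTTAAAA and TAAAATA, were in none of the 3 windows. A match describes letters in a window and does not show that a factor binds there.

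By rank over the replicate 2, replicate 3 and pooled lists, the intronic peak most like the Lk6 site was the CG32772 site, and the reverse, at a distance of 0.0848 on the log10 rank scale among 1413 candidates. The next nearest to Lk6 were the HmgD and HmgZ site, at 0.416, and Kdm2, at 0.451. The next nearest to CG32772 were Kdm2, at 0.390, and the Hyls1 and chif site, at 0.459. The nearest to CG11050 were Trl, at 1.15, ush, at 1.16, and the HmgD and HmgZ site, at 1.42. The distance includes the pooled rank used in the selection, and on a log scale a site at rank 1 is far from all others by construction, so its larger distances are no finding.

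Lk6 was set beside a list of 21 other genes, of Ras and MAP kinase signalling, translation initiation and its control. The list does not hold Lk6 and was written with earlier results of these data known. Of these, 11 (52.4%) had a summit of the final list in the gene or within 2 kb, against 34.7% of all protein-coding genes. All of them but p38c, 10 of the 21, had a final-list summit within 500 bp of their own TSS. The share of all protein-coding genes by that measure is not given here, so nothing is read from it. In the stronger 2288 peaks 7 of the 21 (33.3%) had a summit in the gene or within 2 kb, against 22.3% of all protein-coding genes. The strongest was at eIF4EHP, the gene of a cap-binding protein that competes with eIF4E, 259 bp upstream of its TSS, with a pooled signal of 2227 at rank 16, between Lk6 and CG32772. It had 843.3 in replicate 2 and 1470 in replicate 3. The next strongest of the list belonged to p38a, a MAP kinase gene, at 1176, and the same summit lay within 2 kb of p38c.

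The Ras signalling genes of the list differed. Raf, which activates the MEK kinase, had its strongest summit in an intron, 2261 bp downstream of a TSS, at 1045 and rank 134, in a gene of 48405 bp. Ras85D, which encodes the small GTPase that acts before Raf, had 315.1 at its promoter. The ERK gene rl and the MEK gene Dsor1 had no summit in the final list. Among translation factors, the strongest summit at eIF4G2 was 47 bp downstream of its TSS, at 181.6. The strongest summits at eIF4E1, at 174.9, and eIF4A, at 177.8, lay 2531 bp downstream and 1648 bp upstream of the gene's own nearest TSS. Both were at the promoter of another gene. Each of these genes held 2 final-list summits, and the other lay within 500 bp of its own TSS. The summits of eIF4G2, eIF4E1 and eIF4A were all in the weaker part of the list. The genes eIF4E3, eIF4E4, eIF4E5, eIF4E6, eIF4E7 and eIF4G1 had none. Thor, the 4E-BP gene that holds eIF4E inactive, had 2 summits. The stronger, at 188.8, was in an exon of another gene, 994 bp upstream of Thor's own nearest TSS. The other lay within 500 bp of a TSS of Thor. The gene foxo, whose product is a transcription factor that activates Thor, had 626.8, while S6k and mTor had none. The remaining member with a summit, p38b, had 528.8. The strongest p38b and eIF4G2 summits had no match within 100 bp in replicate 2, and the stronger Thor summit had none in replicate 3.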

How the data were processed

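The series held 1 group of 2 ChIP-seq libraries. The authors deposited a peak list for each replicate, one for both libraries pooled, each called with a control, and a final list thresholded by the irreproducible discovery rate (IDR) on assembly dm6, per the labels' file lists. Each deposited peak carries a signal value, a significance as −log10 of a q-value, and the summit's distance in bp from the region's start as the authors deposited it. The peak caller, the aligner, the filters and the unit of the signal are not given in the sources used here. Reads of the control were not used here. Each of the first 3 lists held exactly 30000 peaks, and the final list held the 4576 strongest pooled peaks, so the pooled and final lists share values and are not independent. Read depth is not part of a peak list, so depth is unknown and no interval could be made for the signal of a peak. Replicate lists of equal length were set side by side by rank.

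Genes came from FlyBase annotation 6.54 in Ensembl release 115, and sequence from RefSeq's copy of Release 6. A summit was put in the first class that applied of promoter (within 500 bp of a TSS), 5' UTR, 3' UTR, coding sequence, other exon, intron and intergenic. Summits within 100 bp were called shared. GC and words were read in 200 bp windows around summits, and background windows tiled all intronic sequence. Copies were searched with BLAST 2.17.0. Scripts used Python 3.11.15, numpy 2.4.6 and pandas 2.3.3, and were tested on simulated data. No statistical test was made.

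The members, the kinase list and the motifs were chosen with earlier results of these data known. Genes named are the 3 members, genes with a TSS within 5 kb of a leading summit, intronic peaks among the strongest 25, the 3 intronic peaks most alike in rank to each site, and kinase list genes with a final-list summit. The nearest other genes, Dpp10, SLC5A11 and lncRNA:CR44120, the list genes without a summit, CG9837 and the gene with the next shortest intron were added after their values were seen. Alternatives changed the flank, the list, the summit distance, the window and the promoter width, 1 at a time.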

Additional observations from a re-analysis of the deposited data

How the results depend on the processing

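Of 42 alternatives over 14 results, 31 left the value within its tolerance and 11 moved it. The tolerance was 1.5 times for a count, 1 SD between replicates for a rank and the exact 95% binomial interval for GC. Without a flank the 3 loci held 3 peaks of the final list in place of 5, because the promoter summits of CG11050 and Lk6 lie upstream of the genes; with 5 kb they held 7. The pooled list held 17 summits with 2 kb, 15 without a flank and 22 with 5 kb or from either replicate's list alone. Using 1 replicate's list alone, the rank of the leading site ran from 1 to 12 for CG11050, 19 to 32 for Lk6 and 22 to 31 for CG32772, with the higher numbers in replicate 2, whose list has mitochondrial peaks near its top. GC depended on the window: at CG11050 it was 23% over 100 bp, 44% over 400 bp and 45.4% over the whole region; at Lk6 42.3% over 400 bp and 42.0% over the whole region; at CG32772 31% over 100 bp. The kinase list count fell from 11 to 7 in the stronger 2288 peaks, where the share over all protein-coding genes was 22.3% in place of 34.7%. With a promoter window of 1000 bp, 2 of the 3 sites stayed in the intron class. No paired analysis was possible because there is 1 group. The pooled and final lists combine both libraries, the control was not used here and no read depth is known, so no error can be put on a signal.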

Other observations

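Among the 200 strongest peaks of the final list, the 7-base words most in excess over peaks from rank 1001 down were CTACGCC, in 16 windows (8% against 0.951%), and GGGCGTA, in 15 (7.5% against 0.979%), counted on both strands and ordered by the difference in share over its counting spread in the weaker peaks. These words overlap by part of their letters. None of the 5 words most in excess was in the CG11050, Lk6 or CG32772 window. The words were picked from the same peaks after the data were seen, so these shares describe those peaks and are no test.

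CpG dinucleotides numbered 8 in the CG11050 window, 8 in the CG32772 window and 2 in the Lk6 window. Cytosine made up 18.5%, 20% and 13% of the plus strand in the same order. The TSS of Dpp10, 11641 bp from the CG11050 summit, had its own summit within 500 bp at rank 662 of the final list, above the CG11050 promoter peak at rank 1493.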
